A study of Homo sapiens with 22 samples.

Results

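The RAS-MAPK effectors and feedback regulators examined here were 10 genes, RRAS2, PAK1, SPRY2, SPRY4, SPRED1, SPRED2, DUSP4, DUSP6, EPHA2 and PHLDA1, out of 19974 protein-coding genes. They were chosen by name, with earlier results of these data known. Every called ATAC-seq peak within a gene's body and 20 kb either side (hg38) was counted, peak by peak and as the length in bp covered by called peaks. After peaks of all libraries were merged, the 10 windows held 50 of 96160 regions. The study profiled accessible chromatin with ATAC-seq, which maps DNA open to the Tn5 transposase, in KMS11 and KMS34, a pair of human multiple myeloma cell lines whose labelled tissue is bone marrow. It addresses what loss of NSD2, a histone H3K36 methyltransferase, does to open chromatin. NSD2LDD is the study's NSD2 degrader, at a concentration not stated in the labels, and DMSO is its vehicle.

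The 11 groups held 2 libraries each. In KMS34, labelled t(4;14), they were day 0 without an agent, NSD2LDD at day 4, DMSO at day 4, NSD2LDD at day 10 and DMSO at day 10. In KMS11 they were TKO cells at day 0, day 0 cells of genotype t(4;14) without an agent, NSD2LDD at day 4, DMSO at day 4, NSD2LDD at day 10 and DMSO at day 10. The labels do not spell out TKO. In published work on KMS11 the name stands for cells whose translocated NSD2 allele was disrupted. Whether these libraries come from 1 clone was not stated in the labels. The libraries of a group are labelled as duplicates with no statement that they were separate cultures, so every p-value measures only the spread between these libraries, which may be technical.

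RAS proteins carry signals from receptor tyrosine kinases to the RAF, MEK and ERK kinases. Active ERK induces genes whose products damp the same pathway, among them the Sprouty and SPRED proteins, which act at the receptor, RAS and RAF steps, and dual-specificity phosphatases, which remove the activating phosphates from ERK. In myeloma, RAS pathway genes are often mutated, and the t(4;14) translocation places FGFR3 as well as NSD2 under immunoglobulin heavy chain control.

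The 22 peak lists held 24979 to 52518 peaks and covered 11.5 to 31.8 Mb. The lists were 24979 to 39002 peaks long in KMS11 and 34165 to 52518 in KMS34. No reads were counted in these lists, which leaves library depth unknown, and an absent peak may be one too shallow to call. Cell type markers were read over the gene body and 5 kb either side, a narrower window than that of the members. Of 9 plasma cell markers, 8 were covered in all 22 libraries and SLAMF7 in 9, while CD3D of T cells and GATA1 of erythroid cells had no called peak in any library. Other T cell, myeloid, erythroid and stromal markers had called peaks in some or all libraries, so coverage at gene level marks the cell type only loosely. NSD2 itself had 1503 and 844 covered bp in TKO, against 931 and 725 bp in day 0 KMS11 (adjusted p = 0.905, limma over all genes), and a covered length checks neither a disrupted allele nor the protein.

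Promoter sequences are shown for the genes whose promoters the comparisons turn on, and for EPHA2, whose annotated promoter was never called. They are RefSeq sequences of GRCh38.p14 from 250 bases before to 50 after an annotated start, all on the minus strand and written 5′ to 3′. RRAS2 has 4 annotated promoters, of which those at chr11:14358418-14358717 (promoter a) and chr11:14359134-14359433 (promoter b) are shown, both inside the region whose peaks were missing in TKO. The PAK1 sequence, at chr11:77411922-77412221, surrounds an internal start inside the gene body. SPRY2 lies at chr13:80341077-80341376, DUSP6 at chr12:89352452-89352751, EPHA2 at chr1:16156020-16156319 and PHLDA1 at chr12:76031727-76032026. Capitals mark the letters of any of 7 motifs on either strand. They are TGANTCA, read by AP-1 factors such as FOS and JUN; TGACGTCA, the cyclic AMP response element or CRE; CCGGAA, the core read by ETS factors, many of them ERK substrates; GGGCGG, the GC box of SP factors; CCAAT, the box bound by NF-Y; CACGTG, the E-box of MYC and related factors; and TATAAA, the TATA box of core promoters. Where the match is on the other strand, the capitals read as its reverse complement.
RRAS2 promoter a: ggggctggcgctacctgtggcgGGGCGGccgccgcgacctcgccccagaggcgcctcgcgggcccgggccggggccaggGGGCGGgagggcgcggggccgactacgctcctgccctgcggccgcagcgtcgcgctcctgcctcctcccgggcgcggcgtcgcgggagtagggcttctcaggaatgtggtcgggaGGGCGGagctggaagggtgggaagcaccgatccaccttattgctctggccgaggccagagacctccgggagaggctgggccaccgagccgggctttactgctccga
RRAS2 promoter b: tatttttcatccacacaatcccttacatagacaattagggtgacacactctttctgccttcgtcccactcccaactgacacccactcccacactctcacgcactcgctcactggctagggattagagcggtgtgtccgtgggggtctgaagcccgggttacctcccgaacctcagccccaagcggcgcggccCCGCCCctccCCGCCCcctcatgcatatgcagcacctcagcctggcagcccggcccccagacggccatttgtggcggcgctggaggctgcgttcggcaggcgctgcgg
PAK1: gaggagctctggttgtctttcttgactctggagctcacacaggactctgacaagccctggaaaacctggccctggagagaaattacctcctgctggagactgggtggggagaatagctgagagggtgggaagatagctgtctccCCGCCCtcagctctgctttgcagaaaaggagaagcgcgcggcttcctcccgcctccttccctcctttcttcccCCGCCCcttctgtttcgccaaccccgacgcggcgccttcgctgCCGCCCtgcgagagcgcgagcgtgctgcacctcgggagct
SPRY2: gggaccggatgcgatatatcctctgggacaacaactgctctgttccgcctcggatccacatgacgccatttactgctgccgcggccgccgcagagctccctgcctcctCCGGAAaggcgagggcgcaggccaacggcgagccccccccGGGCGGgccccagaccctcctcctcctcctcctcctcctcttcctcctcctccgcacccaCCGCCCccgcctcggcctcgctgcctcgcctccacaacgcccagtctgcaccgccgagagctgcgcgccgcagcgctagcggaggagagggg
DUSP6: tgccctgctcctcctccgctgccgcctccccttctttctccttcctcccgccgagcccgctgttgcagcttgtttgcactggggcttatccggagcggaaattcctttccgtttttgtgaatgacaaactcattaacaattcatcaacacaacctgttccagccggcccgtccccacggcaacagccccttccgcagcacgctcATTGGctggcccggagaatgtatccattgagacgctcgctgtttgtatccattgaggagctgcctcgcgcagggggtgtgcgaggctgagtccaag
EPHA2: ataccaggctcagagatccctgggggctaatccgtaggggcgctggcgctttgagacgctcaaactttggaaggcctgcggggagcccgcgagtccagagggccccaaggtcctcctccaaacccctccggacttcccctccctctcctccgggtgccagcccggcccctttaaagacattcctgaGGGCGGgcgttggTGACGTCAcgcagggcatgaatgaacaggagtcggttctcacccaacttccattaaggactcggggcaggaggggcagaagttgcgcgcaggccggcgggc
PHLDA1: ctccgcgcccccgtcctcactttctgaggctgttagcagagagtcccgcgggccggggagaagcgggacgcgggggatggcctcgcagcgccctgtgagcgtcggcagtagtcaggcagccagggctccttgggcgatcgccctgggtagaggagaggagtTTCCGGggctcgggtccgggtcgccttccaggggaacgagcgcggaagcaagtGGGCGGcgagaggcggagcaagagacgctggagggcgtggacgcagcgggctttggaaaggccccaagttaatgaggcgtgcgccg

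Of the 15 annotated promoters of the members in the RefSeq table, 11 held a GC box, against 45.0% of all 35116 promoters. DUSP4 has no promoter in that set, while RRAS2 has 4 of the 15 and SPRY2 has 3. An ETS motif was in 2 of 15, those of SPRY2 and PHLDA1 (17.2% of all), a CCAAT box in 2, those of DUSP6 and an internal start of SPRED2 (34.6% of all), and a CRE in 1, that of EPHA2 (1.85% of all). AP-1 and TATA letters were each in 1 of 15, the internal SPRED2 start (7.71% and 11.5% of all), and no member promoter held the E-box (7.26% of all). The windows of RRAS2 promoters a and b and of PAK1 were covered, at least in part, in 20 of 22 libraries, all but the TKO pair. The DUSP6 and PHLDA1 promoters were covered over all their 300 bases in 22 of 22 libraries, and the EPHA2 promoter had no covered base in any. These letters describe the windows, and binding by any factor was not measured.

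Of the 50 regions, 9 lay at a member's own promoter or gene end, and 7 of these were called in all 22 libraries. Summed over their mean over libraries, these 9 covered 12043 bp of the 22207 bp covered in all 50 regions. Of 24 regions inside gene bodies 3 were called in all 22, and of 17 in the flanks also 3. In all, 13 of 50 regions (26.0%) were called in every library, against 14.4% of the regions of the series, and 11 of 50 were called in 1 library, against 28.0%. SPRED2 had the most regions (14), PAK1 had 8, RRAS2 and EPHA2 had 7 each, and SPRY4 had 1. The strongest peak of the PHLDA1 promoter region, chr12:76030182-76032919, stood in the top 1.71% of its list by the authors' q-value in the library where it ranked best and in the top 33.5% where it ranked worst. Bodies of other genes also reach into the windows, namely SPON1 at RRAS2, POC1B-DUSP6 at DUSP6 and NAP1L1 at PHLDA1 among protein-coding genes, and SPRY4-AS1, SPRY4-IT1, EPHA2-AS1, PHLDA1-AS1, PHLDA1-DT, TOMM20P1 and loci known only by number among the others. ATAC-seq peaks carry no strand, so a region shared by such a pair belongs to both.

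**Figure D1:**
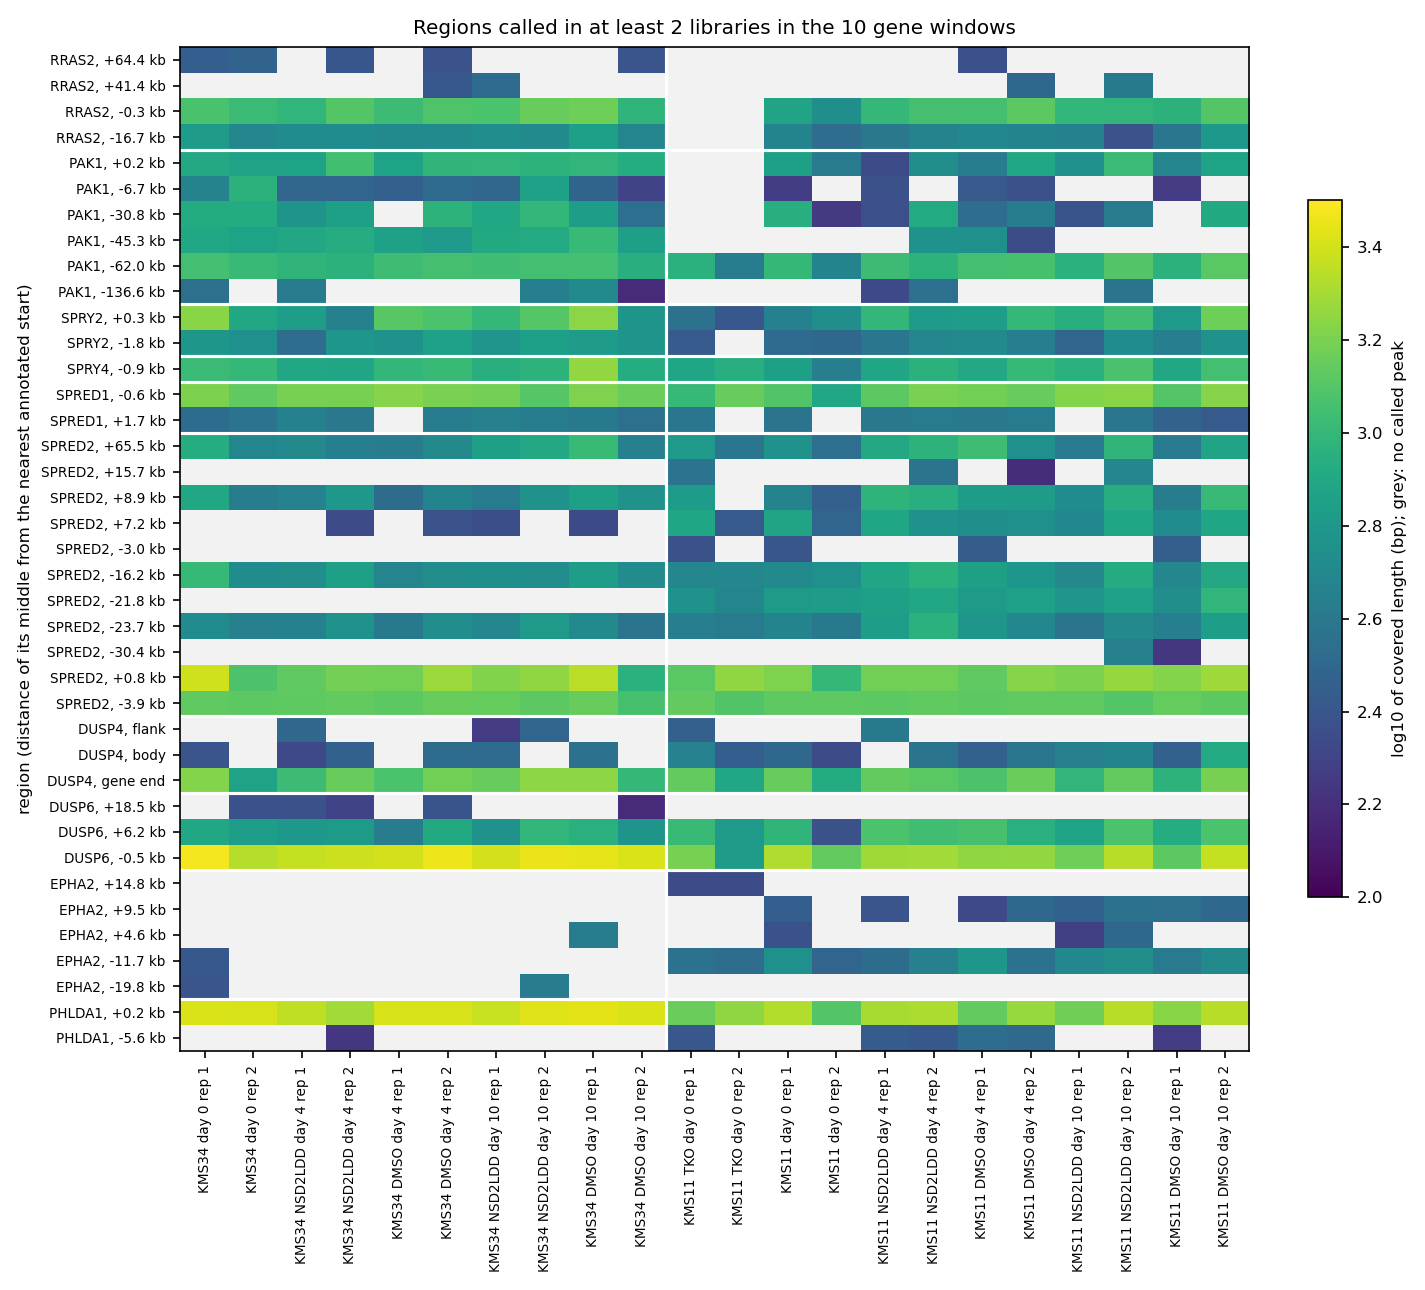
Covered length (log10 bp, colour) of the 39 regions called in at least 2 libraries (rows, by gene and distance in kb of the region's middle from the nearest annotated start) in each of the 22 libraries (columns, 2 per group); grey cells have no called peak. Rows at the SPRY2, SPRY4, SPRED1, SPRED2, DUSP4, DUSP6 and PHLDA1 promoters or gene ends are filled in all 22 libraries, while the TKO columns are grey in all 4 RRAS2 rows.

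The first comparison set TKO against day 0 KMS11. Of the 10 genes, 3 were lower in TKO and none was higher: RRAS2, PAK1 and SPRY2 (limma over 18226 genes, Benjamini-Hochberg adjusted p under 0.05). Over all genes, 3.87% were called lower and 1.54% higher, and at an unadjusted p under 0.05 4 of the 10 members passed, where 17.5% of all genes did. Because the members were chosen with earlier results of these data known, these shares describe them and do not test them as a set. The members' median log2 difference was -0.19, against -0.04 over all genes tested. The count over all genes, 705 lower and 280 higher, was 652 and 869 without day 0 KMS11 replicate 1, 533 and 103 without TKO replicate 1, and 156 and 29 with no scaling, so its balance of directions rests on single libraries and on the scaling. With no scaling the median of all genes stood at 0.14 in place of -0.04, and RRAS2 alone of the 3 members still passed.

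RRAS2 encodes a RAS-related GTPase that signals to PI3 kinase and RAF. Its window had no called peak in either TKO library, against 1224 and 904 bp in day 0 KMS11 (adjusted p = 1.68e-07, n = 2 each). In the other 18 libraries the window held 1313 to 2308 bp, so the TKO pair stood apart from all 20 others. The promoter region, chr11:14357979-14359504, had 0 bp in both TKO libraries, against 747 and 562 bp in day 0 KMS11 (adjusted p = 3.88e-08 over 69191 regions), and 925 to 1466 bp in every other library. A region in the upstream flank, chr11:14380830-14381648, also had 0 bp in both TKO libraries, against 477 and 342 bp in day 0 KMS11 (adjusted p = 8.04e-05), though this call was lost when all lists were shortened to equal length (adjusted p = 0.0814). In bulk cells, a site open in fewer cells and a site less open in each cell cannot be told apart. No fold is given for these regions, because the log2 difference from a group with nothing called depends on the bp added.

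Covered lengths at neighbouring regions on either side of the RRAS2 window are given as values, with no test. These regions were chosen after values were seen, so a called peak in TKO there is no separate result. The region at the COPB1 promoter, 114753 bp to the right, had 1303 and 700 bp in TKO, against 907 and 520 bp in day 0 KMS11. The region at the FAR1 promoter, 588178 bp to the left, had 1060 and 1093 bp in TKO, against 932 and 563 bp in day 0 KMS11.

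PAK1 encodes a kinase that acts downstream of RAC and CDC42 and phosphorylates RAF and MEK. Its window had 911 and 431 bp in TKO, against 2785 and 1065 bp in day 0 KMS11, ranges that did not overlap. The log2 difference was -1.40 ± 0.22 (SE, adjusted p = 0.000564, n = 2 each). With no scaling it was -1.21 and did not pass (adjusted p = 0.262). The region at its internal annotated start, chr11:77411174-77412391, had 0 bp in both TKO libraries, against 713 and 408 bp in day 0 KMS11 (adjusted p = 4.00e-05), and 222 to 1105 bp in the other 18 libraries. It lies at the only PAK1 start in the RefSeq promoter set used here, an internal start well inside the gene body.

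What remained at PAK1 in TKO was 1 region. It lies in the gene body, chr11:77473332-77474645, and is the PAK1 region called in all 22 libraries, with 911 and 431 bp in TKO against 1002 and 478 bp in day 0 KMS11. It ranked best of the PAK1 regions, in the top 5.07% of its list by the authors' q-value at best and the top 73.9% at worst. Whether this region holds a PAK1 start missing from the promoter set was not examined. A second body region, chr11:77442217-77443257, had 0 bp in both TKO libraries, against 883 and 179 bp in day 0 KMS11, and did not pass the test (adjusted p = 0.197). Of the neighbouring regions outside the window, that to the left had 555 and 615 bp in TKO, against 600 and 460 bp in day 0 KMS11. That to the right had 776 and 912 bp in TKO, against 828 and 719 bp in day 0 KMS11. Both were chosen after values were seen and were given no test.

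**Figure D2:**
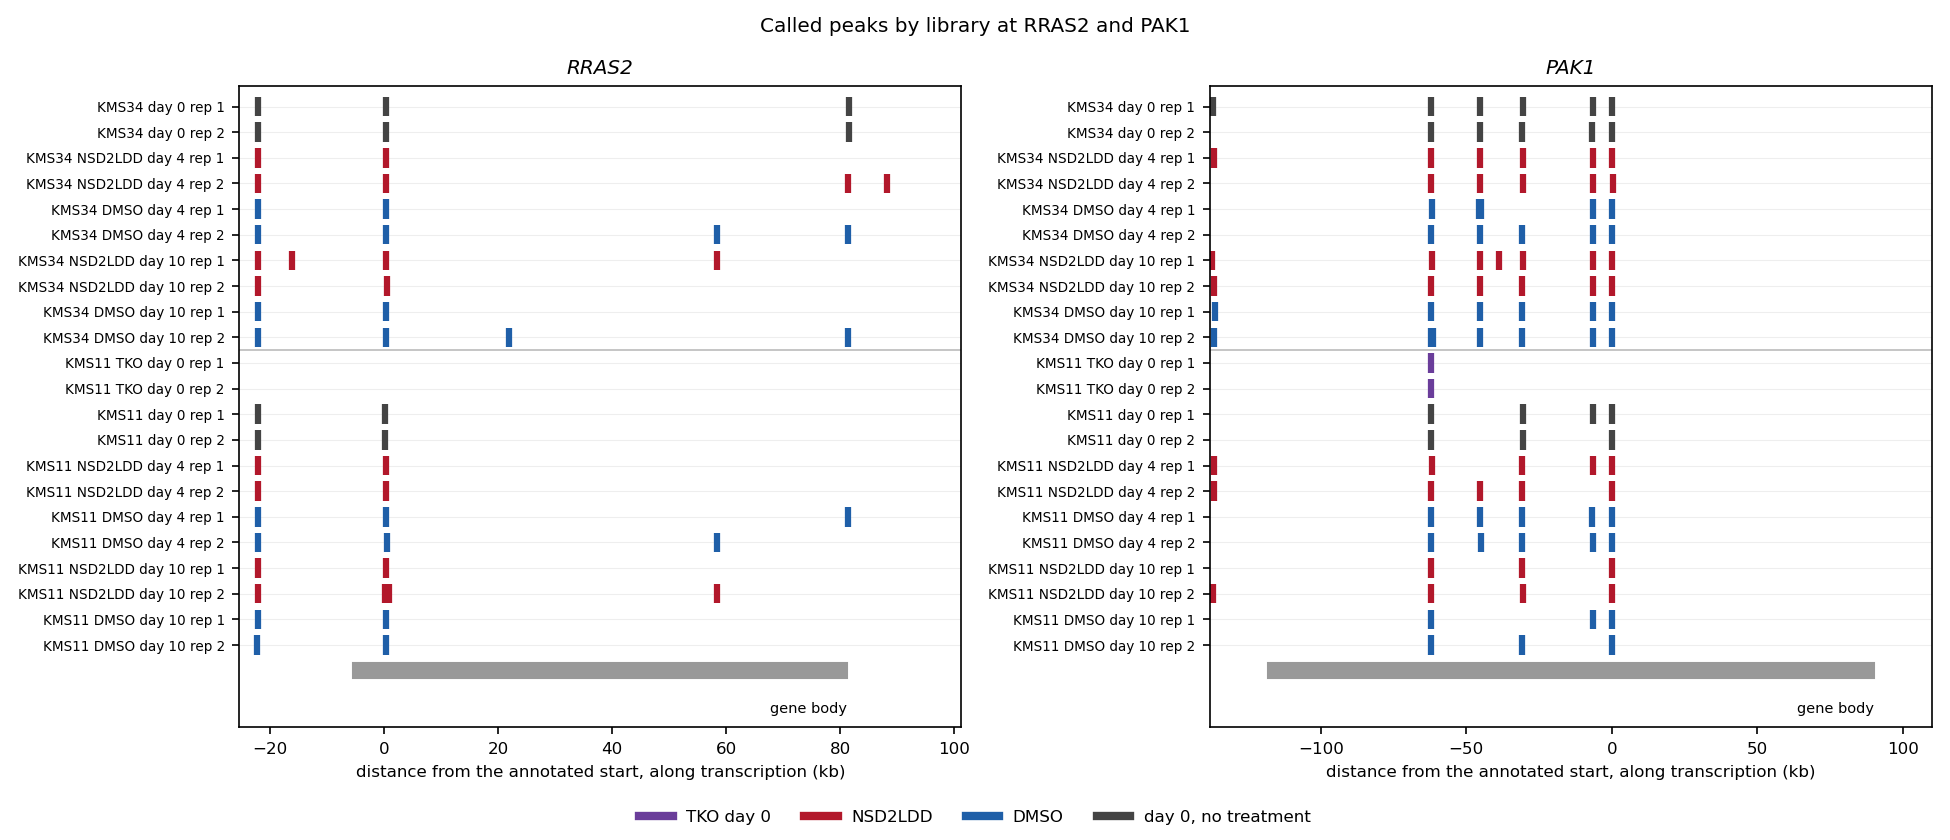
Called peaks in each library (rows) at RRAS2 and PAK1 by distance from an annotated start along the direction of transcription (kb); each mark stands at a peak's middle and its width is not the peak's width, and the grey bar is the gene body. The 2 TKO rows are empty across the RRAS2 window and hold 1 peak each at PAK1, inside the gene body at the site where all 22 libraries have one.

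SPRY2 and SPRY4 encode Sprouty proteins, feedback inhibitors of receptor tyrosine kinase signalling. SPRY2 had 634 and 255 bp in TKO, against 787 and 874 bp in day 0 KMS11, and was lower in TKO by a log2 difference of -0.93 ± 0.24 (SE, adjusted p = 0.0271, n = 2 each). The groups did not overlap, but the call rested on single libraries: without day 0 KMS11 replicate 2 the log2 difference was -0.58 (adjusted p = 0.304), and without TKO replicate 2 it was -0.69 (adjusted p = 0.201). The call was also lost with 1000 bp added, with lists of equal length, with no scaling and in a fit of KMS11 alone (adjusted p = 0.0656 to 0.598). Of its 2 regions, the promoter region chr13:80339912-80341775 had 364 and 255 bp in TKO, against 454 and 555 bp in day 0 KMS11. The upstream region chr13:80342581-80343343 had 270 and 0 bp in TKO, against 333 and 319 bp in day 0 KMS11 (adjusted p = 0.0825), and TKO replicate 2 was the only library of 22 without a peak there.

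SPRY4 did not follow SPRY2. It had 770 and 881 bp in TKO, against 711 and 438 bp in day 0 KMS11, all of it in the promoter region chr5:142324293-142326088, shared with SPRY4-AS1, and the log2 difference of 0.24 ± 0.22 (SE) did not pass (adjusted p = 0.671). SPRED1, which restrains RAF activation and recruits neurofibromin, had 1399 and 1425 bp in TKO, against 1617 and 795 bp in day 0 KMS11 (log2 difference 0.08 ± 0.19 SE, adjusted p = 0.905). Its promoter region, chr15:38251335-38253180, was called in all 22 libraries, with 1012 and 1425 bp in TKO against 1241 and 795 bp in day 0 KMS11. SPRED2, its paralogue with the same restraining role, had 6879 and 5073 bp in TKO, against 6676 and 4934 bp in day 0 KMS11 (log2 difference -0.15 ± 0.12 SE, adjusted p = 0.623). The ranges of both SPRED genes overlapped between the groups.

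The MAPK phosphatases gave 1 region. DUSP6, a cytoplasmic phosphatase of ERK, had 2593 and 1311 bp in TKO, against 3051 and 1610 bp in day 0 KMS11, and its window did not pass (log2 difference -0.43 ± 0.16 SE, adjusted p = 0.168). Its promoter region, chr12:89351459-89354514, had 1550 and 672 bp in TKO, against 2095 and 1374 bp in day 0 KMS11, and was lower in TKO by a log2 difference of -0.81 ± 0.19 (SE, adjusted p = 0.0197). The raw ranges overlapped, and the call was lost without TKO replicate 2 (-0.41, adjusted p = 0.199), without day 0 KMS11 replicate 1 (-0.72, adjusted p = 0.108) and with no scaling (-0.67, adjusted p = 0.551), and also in a fit of KMS11 alone (adjusted p = 0.0568) and without the trend and robust options (adjusted p = 0.116). With windows of fixed width around summits the difference was 0 (adjusted p = 1), but such windows leave out peak width. DUSP4, a nuclear MAPK phosphatase, had 2131 and 1076 bp in TKO, against 1733 and 1056 bp in day 0 KMS11 (log2 difference -0.04 ± 0.23 SE, adjusted p = 0.949). The region at its gene end, chr8:29349484-29351359, was called in all 22 libraries, with 1382 and 794 bp in TKO against 1418 and 834 bp in day 0 KMS11.

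EPHA2, a receptor tyrosine kinase for ephrin-A ligands, had 588 and 563 bp in TKO, against 1081 and 308 bp in day 0 KMS11, with no difference past the test over its window (adjusted p = 0.905). Inside the gene body, chr1:16141170-16141393 had 224 and 219 bp in TKO and no called peak in any other library of the series. The region passed the filter of at least 2 libraries only through TKO, so its adjusted p of 0.00478 (limma) is no separate evidence of a difference. Its peaks were weak, in the top 92.1% and 95.4% of their lists by the authors' q-value, and the call was lost with 300 bp added (adjusted p = 0.0846) and in a fit of KMS11 alone (adjusted p = 0.148). PHLDA1, a pleckstrin homology-like domain protein that is a known output gene of ERK, had 1695 and 1779 bp in TKO, against 2121 and 1255 bp in day 0 KMS11 (adjusted p = 0.883).

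Peak by peak, 5 of the 39 tested regions were called in TKO against day 0 KMS11: 4 lower (2 at RRAS2, 1 at PAK1 and 1 at DUSP6) and 1 higher (EPHA2). The EPHA2 region was tested only because of its TKO peaks. Over all 69191 regions 3.10% were called lower and 0.967% higher, and without day 0 KMS11 replicate 1 the balance turned, with 1840 lower and 2149 higher. Of 23 member regions called in both day 0 KMS11 libraries, 4 (17.4%) were called in neither TKO library, against 12.4% of 22219 such regions over the series. Of 18 member regions called in both TKO libraries, 1 (5.56%) was called in neither day 0 KMS11 library, against 5.82% of 22448 over the series.

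A list of 71 other genes of the pathway, from RAS and RAF family genes to scaffolds, phosphatases and ribosomal S6 kinases, was read from the same fit, and all 71 were tested. This list was also chosen with earlier results of these data known. In TKO 3 were lower and 0 higher than in day 0 KMS11 (4.23% lower, against the 3.87% of all genes), with a median log2 difference of -0.07. RPS6KA2, a ribosomal S6 kinase gene, had 1418 to 1723 bp in TKO, against 2411 to 3634 bp in day 0 KMS11 (log2 difference -1.03 ± 0.19 SE, adjusted p = 0.00240). KSR1, a scaffold for RAF and MEK, had 155 to 710 bp in TKO, against 861 to 1411 bp in day 0 KMS11 (log2 difference -1.39 ± 0.26 SE, adjusted p = 0.00337). KSR2, its paralogue, had 0 to 179 bp in TKO, against 520 to 829 bp in day 0 KMS11 (adjusted p = 0.0115).

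The second comparison set NSD2LDD against DMSO over days 4 and 10, 4 libraries against 4 in each line. No member gene was called in KMS34 or in KMS11, where 0.0165% and 0.0110% of all genes were called in either direction. At an unadjusted p under 0.05, 1 of 10 members passed in KMS34 (SPRY4) and 0 of 10 in KMS11, where 6.58% and 3.85% of all genes did. No member region was called in either line, where 0.986% of all regions were called in KMS34 and 0.0694% in KMS11, and 2 of 39 member regions had an unadjusted p under 0.05 in each line, where 9.88% of all regions did in KMS34 and 4.80% in KMS11. The difference of the NSD2LDD effects between the lines was called at no member gene or region (0 and 0.00578% of all genes and regions). The p-values that missed the threshold do not show that the members are equal under NSD2LDD and DMSO.

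The effectors stayed covered under NSD2LDD. RRAS2 ranged from 1497 to 2308 bp with NSD2LDD in KMS34 (median 2080), against 1588 to 2244 bp with DMSO (median 2035), a log2 difference of 0.02 ± 0.14 (SE, adjusted p = 1.00, n = 4 each). In KMS11, RRAS2 ranged from 1393 to 1617 bp with NSD2LDD (median 1521), against 1313 to 2120 bp with DMSO (median 1877.5), a log2 difference of -0.24 ± 0.14 (SE, adjusted p = 1.00, n = 4 each). Its promoter region was called in all 8 NSD2LDD libraries. PAK1 ranged from 3812 to 5039 bp with NSD2LDD in KMS34, against 2838 to 4619 bp with DMSO (0.25 ± 0.15 SE, adjusted p = 0.908). In KMS11 PAK1 ranged from 1726 to 3241 bp with NSD2LDD, against 1583 to 2871 bp with DMSO (-0.04 ± 0.15 SE, adjusted p = 1.00).

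Among the feedback regulators, the log2 differences in KMS34 ran from -0.33 to 0.28. The lowest was SPRY4, which ranged from 773 to 938 bp with NSD2LDD, against 845 to 1796 bp with DMSO (-0.33 ± 0.15 SE, unadjusted p = 0.0470, adjusted p = 0.753, limma). SPRY2 was close to it, with 1040 to 1978 bp under NSD2LDD, against 1193 to 2422 bp under DMSO (-0.33 ± 0.17 SE, adjusted p = 0.818), and DUSP4 was the highest (0.28 ± 0.16 SE, adjusted p = 0.879). In KMS11 all 10 members lay between -0.24 and 0.06 on the log2 scale, with SPRED2 highest and RRAS2 lowest.

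By day, with 2 libraries against 2 and no test, the separations were at day 4. The lengths and overlaps by day are those before scaling. In KMS34 at day 4, SPRY2 had 1040 and 1076 bp with NSD2LDD, against 1872 and 1917 bp with DMSO. SPRY4 had 785 and 773 bp with NSD2LDD there, against 983 and 1039 bp with DMSO, and PHLDA1 had 2287 and 2135 bp with NSD2LDD, against 2566 and 2578 bp with DMSO. These 3 of 10 members were lower without overlap, where 21.3% of all genes were, and none was higher (4.88% of all genes). After scaling, the log2 differences were -0.65 for SPRY2, -0.22 for SPRY4 and -0.12 for PHLDA1. At day 10 the groups overlapped at all 10 members in both lines, where 5.54% of all genes were lower and 8.19% higher without overlap in KMS34, and 4.70% and 4.83% in KMS11. There, SPRY2 in KMS34 had 1596 and 1978 bp with NSD2LDD, against 2422 and 1193 bp with DMSO.

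In KMS11 at day 4, RRAS2 and EPHA2 were lower without overlap (2 of 10, against 9.09% of all genes). RRAS2 had 1393 and 1607 bp with NSD2LDD, against 1871 and 2120 bp with DMSO, and EPHA2 had 587 and 450 bp with NSD2LDD, against 834 and 681 bp with DMSO. SPRED2, DUSP6 and PHLDA1 were higher without overlap (3 of 10, against 18.4% of all genes). After scaling, the log2 differences of these were 0.09, 0.08 and 0.09, against -0.42 for RRAS2 and -0.47 for EPHA2. DUSP6, for example, had 3124 and 3069 bp with NSD2LDD, against 2928 and 2696 bp with DMSO.

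The other pathway genes gave the same count under NSD2LDD: 0 of 71 were called in KMS34 and 0 of 71 in KMS11, with smallest adjusted p-values of 0.613 and 1.00.

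The effect of TKO was then set against the effect of NSD2LDD in KMS11 in 1 fit, a contrast added after the data had been seen. RRAS2 (adjusted p = 8.74e-06) and PAK1 (log2 difference of effects -1.36 ± 0.27 SE, adjusted p = 0.00721) were lower in TKO relative to the NSD2LDD effect, where 2.33% of all genes were, and none was higher (0.560% of all genes). Without day 0 KMS11 replicate 1 this contrast called 432 genes lower and 597 higher in place of 425 and 102, and 1339 regions lower and 1506 higher in place of 1472 and 385. SPRY2 did not pass (-0.82 ± 0.29 SE, adjusted p = 0.174), though it did without day 0 KMS11 replicate 1 (-1.17, adjusted p = 0.0281). Of the regions, 3 lower and 1 higher of 39 passed, against 2.13% and 0.556% of all regions. They were the RRAS2 promoter region (adjusted p = 1.08e-06), the RRAS2 flank region (adjusted p = 0.00251), the PAK1 region at its internal start (adjusted p = 0.000671) and the EPHA2 body region (adjusted p = 0.0289). The EPHA2 region entered the test only through its TKO peaks, so its call is no separate evidence. The PAK1 gene call was lost with lists of equal length (adjusted p = 0.0899), with peaks of -log10 q of 5 or more (adjusted p = 0.0748) and with no scaling (adjusted p = 0.758), while RRAS2 passed in all 11 alternatives. The RRAS2 flank region was lost with lists of equal length (adjusted p = 0.281) and in a fit of KMS11 alone (adjusted p = 0.0745), and the EPHA2 region in 3 of 8 alternatives and without any of 7 single KMS11 libraries, day 0 replicate 1 among them (adjusted p = 0.105). Of the 71 other pathway genes KSR1 passed (-1.27 ± 0.32 SE, adjusted p = 0.0405). The TKO and degrader libraries differ in day and agent as well, and these cannot be told apart from the genotype here.

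**Figure D3:**
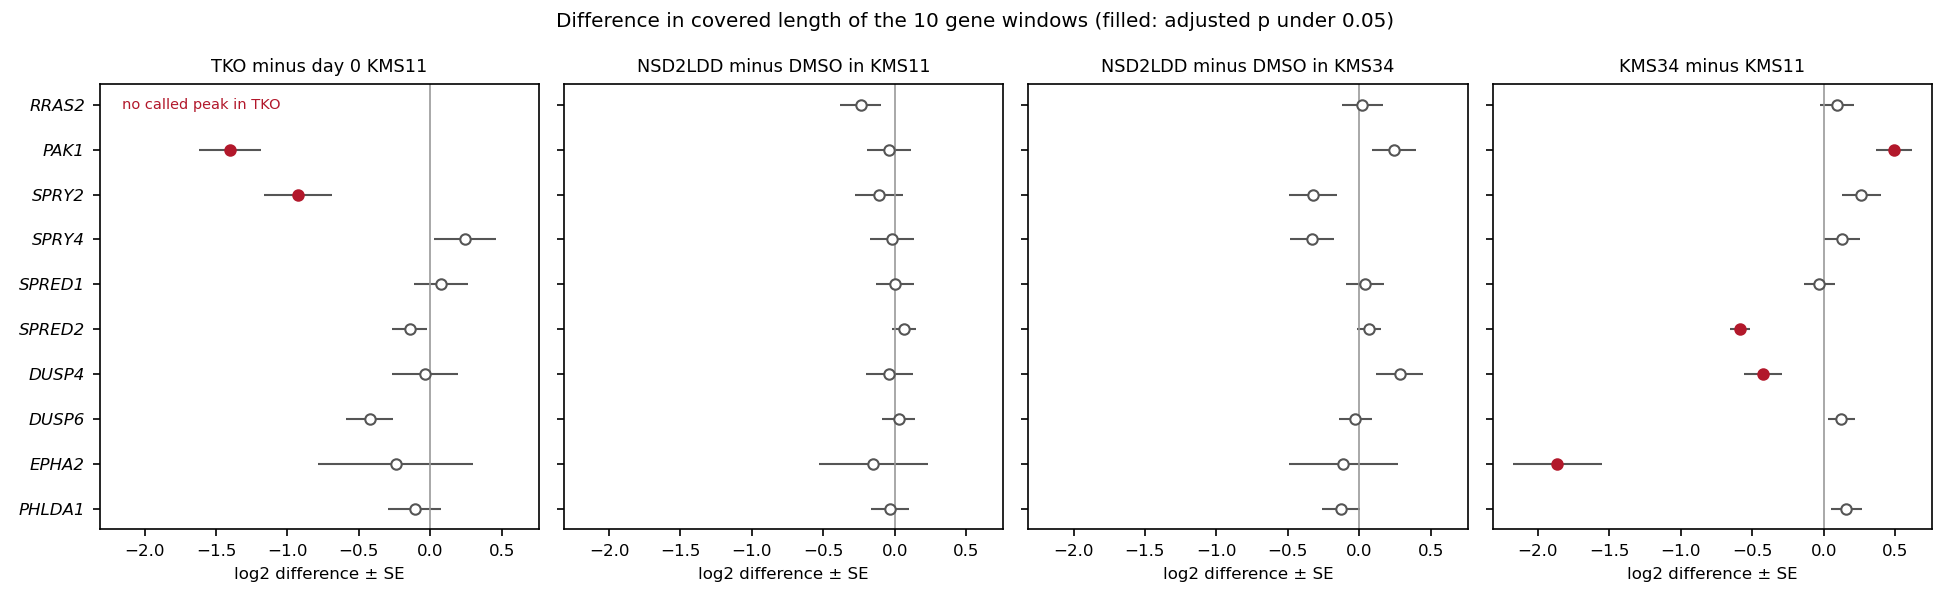
Log2 difference in covered length (points, bars 1 SE, limma) for the 10 genes in TKO against day 0 KMS11 (2 libraries each), NSD2LDD against DMSO in KMS11 and in KMS34 (4 each), and KMS34 against KMS11 (6 each); filled points have an adjusted p under 0.05. RRAS2 is written out for TKO because no peak was called there, PAK1 and SPRY2 are filled for TKO, no point is filled under NSD2LDD, and EPHA2, SPRED2, DUSP4 and PAK1 are filled between the lines.

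The last comparison set KMS34 against KMS11 over the day 0 and DMSO libraries, 6 against 6. The day 0 KMS11 libraries are shared with the TKO comparison and the DMSO libraries with the NSD2LDD comparisons. Of the 10 members, 3 were lower in KMS34 (EPHA2, SPRED2 and DUSP4) and 1 was higher (PAK1), in a comparison that called 17.5% of all genes lower and 23.3% higher. These were 3182 lower and 4255 higher genes, but 930 lower and 5221 higher with no scaling, where the median log2 difference of all genes was 0.29 in place of 0.03. The 4 of 10 members called is close to the 40.8% of all genes called in either direction.

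EPHA2 differed most. Its window ranged from 0 to 675 bp in KMS34 (median 0), against 308 to 1159 bp in KMS11 (median 803), and 4 of 6 KMS34 libraries had no called peak. The log2 difference was -1.86 ± 0.31 (SE, adjusted p = 0.000118, n = 6 each), and its size depends on the bp added, with -0.72 to -3.06 over the alternatives, all past the test. The upstream region chr1:16167490-16168144 was called in 1 of 6 KMS34 libraries (260 bp in day 0 replicate 1), against 308 to 620 bp in all 6 KMS11 libraries (adjusted p = 2.76e-06). The body region chr1:16146353-16146748 was called in 0 of 6 KMS34 libraries, against 5 of 6 KMS11 libraries (highest 359 bp, adjusted p = 0.000394), and was lost with lists of equal length (adjusted p = 0.140). Both regions passed the filter of at least 2 libraries only through KMS11, so their adjusted p-values are no separate evidence of a difference. Neither region lies at the annotated EPHA2 promoter, which was uncovered in both lines.

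SPRED2 ranged from 4009 to 7004 bp in KMS34 (median 5065.5), against 4934 to 8222 bp in KMS11 (median 6846.5), with a log2 difference of -0.59 ± 0.07 (SE, adjusted p = 2.67e-06). With no scaling the difference was -0.33 and did not pass (adjusted p = 0.150). Both SPRED2 regions that passed lay inside the gene body. The region chr2:65388052-65389028, 21762 bp upstream of the gene's internal annotated start, was called in 0 of 10 KMS34 libraries of any treatment and in all 12 KMS11 libraries, TKO included, at 488 to 968 bp (adjusted p = 5.01e-09 for 6 against 6). It passed the filter of at least 2 libraries only through KMS11, so that adjusted p is no separate evidence of a difference. The region chr2:65359181-65360048 was called in 2 of 6 KMS34 libraries (highest 242 bp), against 310 to 762 bp in all 6 KMS11 libraries (adjusted p = 0.000311), and did not pass with windows around summits (adjusted p = 0.0617). The SPRED2 promoter region, chr2:65430515-65433045, was called in all 22 libraries and did not pass (log2 difference -0.09, adjusted p = 0.693), though it did with lists of equal length (-0.62, adjusted p = 0.0455).

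**Figure D4:**
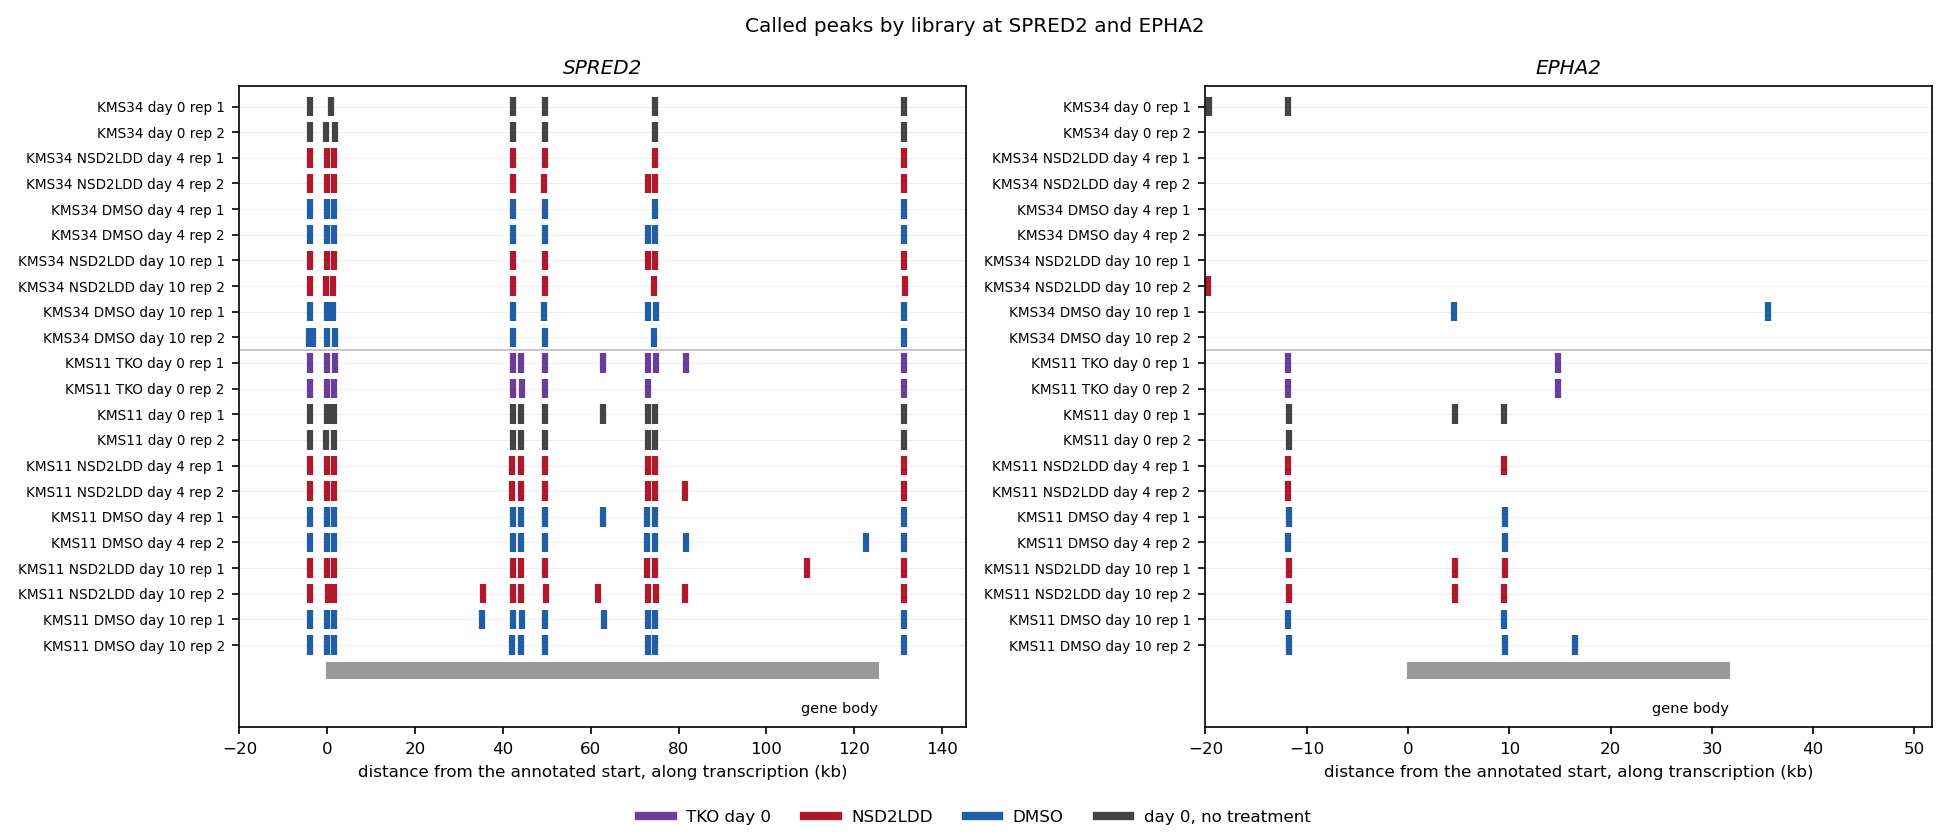
Called peaks in each library (rows, KMS34 above KMS11) at SPRED2 and EPHA2 by distance from an annotated start along transcription (kb); each mark stands at a peak's middle and its width is not the peak's width, and the grey bar is the gene body. At SPRED2 1 column of marks inside the gene body is present in all 12 KMS11 rows and absent from all 10 KMS34 rows, and at EPHA2 most KMS34 rows are empty.

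PAK1 was the member higher in KMS34. It ranged from 2838 to 4619 bp in KMS34 (median 4131), against 1065 to 2871 bp in KMS11 (median 2755), ranges that overlapped by their ends, and the log2 difference was 0.49 ± 0.13 (SE, adjusted p = 0.00420). The body region chr11:77456781-77457849 was called in all 6 KMS34 libraries at 647 to 1033 bp, against 2 of 6 KMS11 libraries, both DMSO at day 4, at 564 and 223 bp (log2 difference 2.20 ± 0.36 SE, adjusted p = 0.000204). With no called peak in the other 4 KMS11 libraries its size depends on the bp added, and it was 1.30 to 3.30 over the alternatives, all past the test. The raw ranges of that region did not overlap.

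At the phosphatases and PHLDA1 the differences were smaller. DUSP4 ranged from 730 to 2135 bp in KMS34 (median 1520), against 1056 to 2384 bp in KMS11 (median 1617.5), and the log2 difference of -0.42 ± 0.13 (SE, adjusted p = 0.0170) came with ranges that overlapped. The DUSP4 call was lost with no scaling (-0.16, adjusted p = 0.610), with lists of equal length (adjusted p = 0.0727), and without KMS34 day 0 replicate 2 (adjusted p = 0.0689), KMS34 DMSO day 10 replicate 2 (adjusted p = 0.0585) or KMS11 DMSO day 10 replicate 2 (adjusted p = 0.0605). The DUSP6 promoter region ranged from 2160 to 3012 bp in KMS34, against 1330 to 2330 bp in KMS11 (0.39 ± 0.11 SE, adjusted p = 0.0109). That call was lost with lists of equal length (adjusted p = 0.133) and without the trend and robust options (adjusted p = 0.0514), and windows around summits gave the opposite direction (-0.86, adjusted p = 0.318). The PHLDA1 promoter region ranged from 2554 to 2738 bp in KMS34, against 1255 to 2177 bp in KMS11, with no overlap (0.40 ± 0.10 SE, adjusted p = 0.00664). Windows of fixed width around summits could not test that difference. The region was called in all 22 libraries and such windows leave out peak width, so their log2 difference of 0 was set in advance.

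Beside it, the PHLDA1 flank region chr12:76037196-76037593, in the body of NAP1L1, was called in 0 of 6 KMS34 libraries, against 3 of 6 KMS11 libraries (adjusted p = 0.0233), and the call was lost with lists of equal length (adjusted p = 0.137), with windows around summits (adjusted p = 0.108) and without any of 5 single libraries (adjusted p up to 0.0752): KMS11 day 0 replicate 2, KMS11 DMSO day 10 replicate 1, KMS11 DMSO day 4 replicate 1, KMS34 day 0 replicate 1 and KMS34 DMSO day 10 replicate 1. Over its whole window PHLDA1 ranged from 2554 to 2738 bp in KMS34, against 1255 to 2194 bp in KMS11, without overlap, and did not pass (0.16 ± 0.11 SE, adjusted p = 0.262). It passed in 3 of 10 alternatives: windows of 5 kb (adjusted p = 0.0443), lists of equal length (adjusted p = 0.0272) and no scaling (0.42, adjusted p = 0.0213). RRAS2 (0.09 ± 0.12 SE, adjusted p = 0.556), SPRY2 (0.26 ± 0.14 SE, adjusted p = 0.138, but 0.0320 without day 0 KMS11 replicate 2), SPRY4 (0.13 ± 0.13 SE, adjusted p = 0.443), SPRED1 (-0.03 ± 0.11 SE, adjusted p = 0.854) and DUSP6 (0.12 ± 0.10 SE, adjusted p = 0.322) did not pass either. Across all members 5 regions were lower and 3 higher in KMS34 of 39 tested, against 14.2% and 20.0% of all regions. The SPRED2 region called in KMS11 alone, both EPHA2 regions and the PHLDA1 flank region were tested only because of their KMS11 peaks. Their adjusted p-values are therefore no separate evidence of a difference.

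Of the 71 other pathway genes, 10 were lower and 17 higher in KMS34 (14.1% and 23.9%, against 17.5% and 23.3% of all genes). EPHB2, another Eph receptor gene, ranged from 1070 to 2911 bp in KMS34, against 0 to 313 bp in KMS11 (log2 difference 2.39 ± 0.25 SE, adjusted p = 7.14e-07), the other way from EPHA2. MET, the hepatocyte growth factor receptor gene, was also higher in KMS34 (1529 to 3217 bp, against 547 to 1540 bp in KMS11, adjusted p = 3.05e-05). Lower in KMS34 were EGFR (490 to 534 bp, against 882 to 1886 bp in KMS11, adjusted p = 9.95e-07) and the RAS-RAF scaffold gene SHOC2 (1266 to 2025 bp, against 2326 to 3909 bp in KMS11, adjusted p = 1.42e-05). RPS6KA2 was lower as well (1704 to 2935 bp in KMS34, against 2411 to 5210 bp in KMS11, adjusted p = 4.09e-06).

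Over the 11 groups the members did not share 1 order of levels. TKO had the lowest group mean for RRAS2, PAK1, SPRY2 and DUSP6, day 0 KMS11 for SPRY4, SPRED1 and PHLDA1, and a KMS34 group for SPRED2, DUSP4 and EPHA2. The highest group mean was in KMS34 for RRAS2, PAK1, SPRY2, SPRY4, SPRED1, DUSP4, DUSP6 and PHLDA1, and in KMS11 with NSD2LDD for SPRED2 (7886.5 ± 507 bp at day 4, SD, n = 2) and EPHA2 (1108 ± 174 bp at day 10, SD, n = 2). Most neighbours in these orders overlapped: of 10 neighbouring pairs per gene, 0 to 3 did not overlap, and for DUSP4 and EPHA2 none were apart. The same count over all genes is not given here, so this count describes the members alone. The levels are those before scaling, and the peaks of day 0 KMS11 replicate 2 covered the least of all libraries (11.5 Mb). The part of list length in the order of the levels was not tested.

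**Figure D5:**
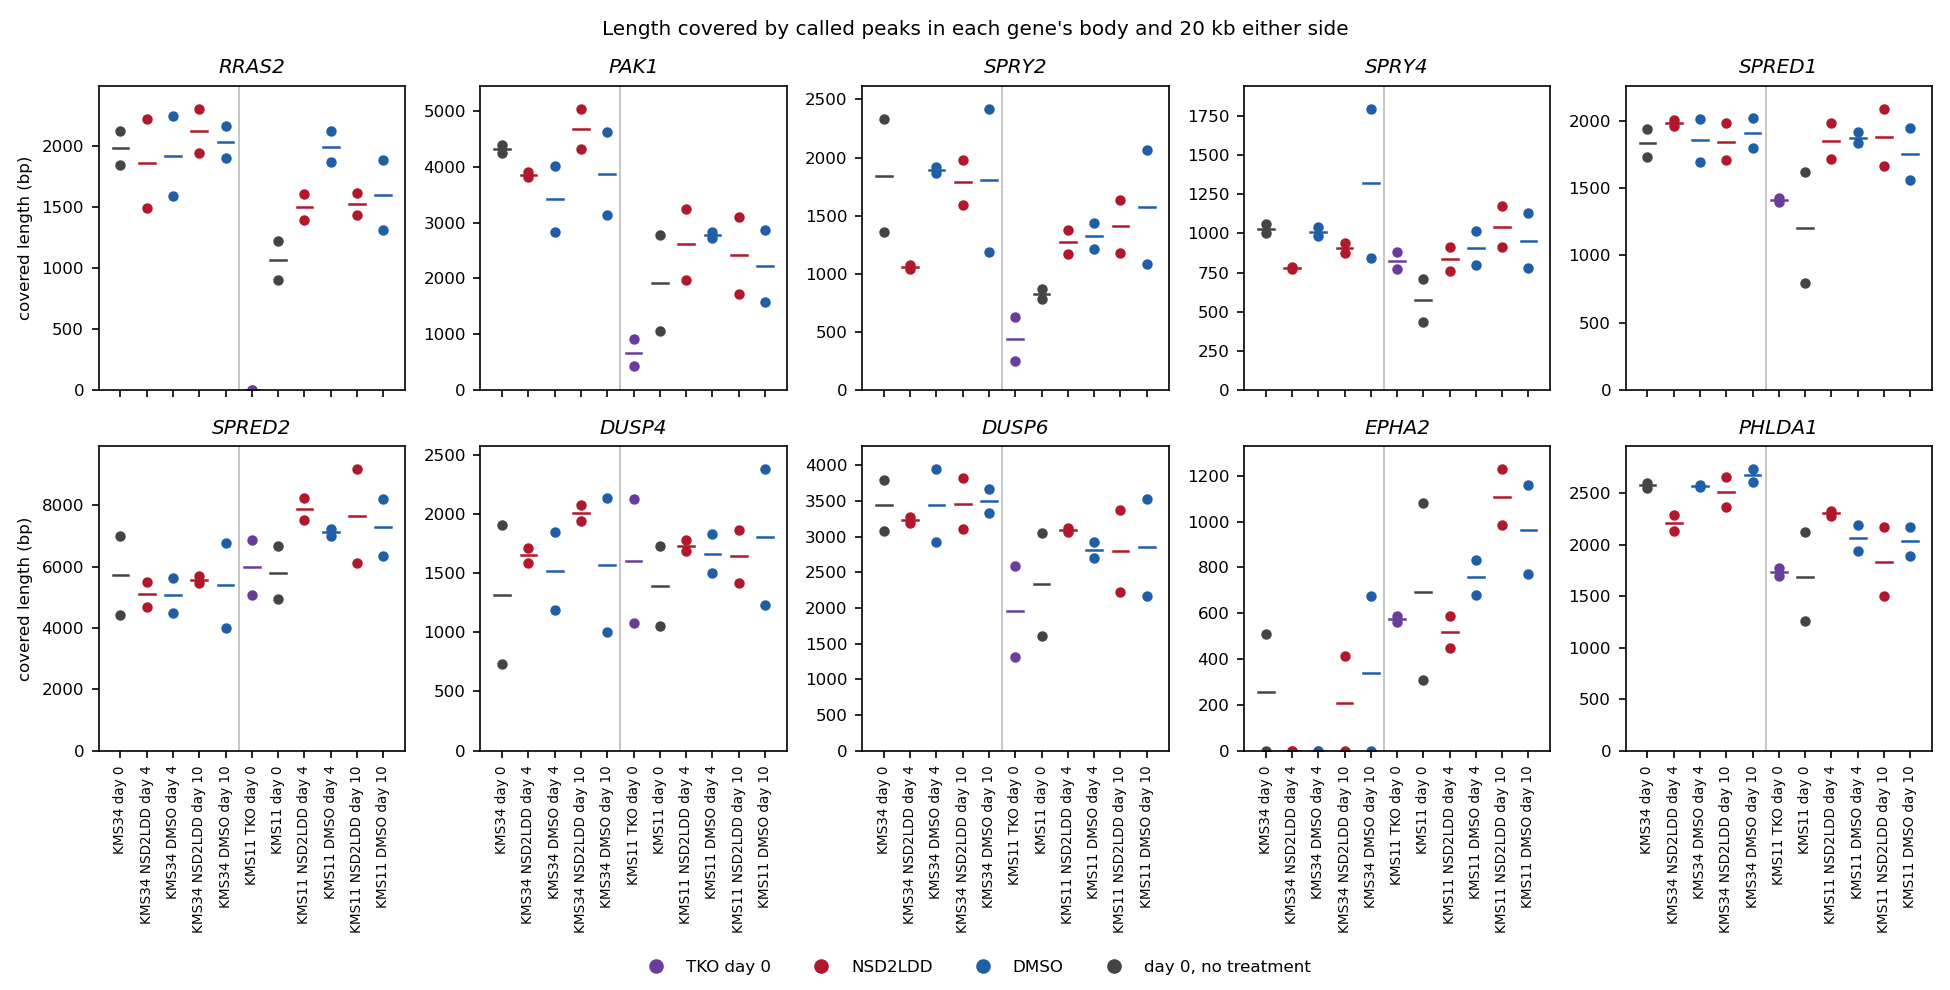
Covered length in bp of each gene's body and 20 kb either side (vertical axes start at 0, own scale per gene) in the 22 libraries (points) by group, with the group mean as a line and KMS34 left of KMS11. TKO lies at 0 bp for RRAS2 and below all other groups' means for PAK1 and SPRY2, and most KMS34 points lie at 0 bp for EPHA2.

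The genes elsewhere in the genome whose covered length was most like a member's over the 22 libraries, by Pearson r of scaled log2 values among 16664 to 16700 genes, were SERTAD4 for RRAS2 (r = 0.96), ADAM19 for PAK1 (r = 0.96), JUN for SPRY2 (r = 0.83) and EHBP1 for SPRY4 (r = 0.70). They were OCM2 for SPRED1 (r = 0.78), TBL1XR1 for SPRED2 (r = 0.97), LHX3 for DUSP4 (r = 0.77) and TCF21 for DUSP6 (r = 0.87). For EPHA2 it was AHRR (r = 0.93), and for PHLDA1 it was LOC124900416 (r = 0.80). The libraries share 2 lines and 11 groups, and these values describe the best of many genes, with no test.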

How the data were processed

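ATAC-seq peak lists of 22 libraries were used as the authors deposited them, with peaks called in each library separately. Per the submitters' processing notes, fastp, BWA, SAMtools, Picard, MACS3 and deepTools were used with hg38; the sources used here give no versions, Tn5 shift or caller settings. The deposited −log10 q of a peak ranked and filtered peaks within a list (lowest 2.00). The deposited score, the ratio over background (fold enrichment) and the −log10 p were not used, and there are no read counts.

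Overlapping peaks of the 22 lists were joined into regions. Values were log2 of covered bp plus 200 bp (genes, body and 20 kb either side) or 100 bp (regions), less the library median over features covered in all 22 libraries (13825 genes, 13884 regions). Features covered in at least 2 libraries entered limma 3.58.1 (trend and robust, R 4.3.3), with 11 group means and Benjamini-Hochberg adjustment at 0.05, two-sided. The fitting was checked on simulated data. Python 3.11.15, numpy 2.4.6, pandas 2.3.3, matplotlib 3.10.9 and bedtools 2.31.1 were also used. Gene positions and promoters came from RefSeq (GRCh38.p14), which gives no exons here.

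The members and lists were chosen with earlier results of these data known. Named were all members, regions past a test, each member's region called in the most libraries, regions called in every library of 1 line and none of the other, up to 6 pathway genes past a test per comparison by smallest p, and the gene most like each member. One pathway gene that the rule names is not reported here. The NSD2 row, the SPRY2 upstream, the 883 bp PAK1 and the neighbouring regions, the day-by-day overlaps and the contrast of TKO with NSD2LDD effects were chosen after values were seen. Alternatives changed the q threshold, list length, scaling, bp added, filter, window, summits, fit and libraries.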

Additional observations from a re-analysis of the deposited data

How the results depend on the processing

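Of 5379 recomputed values of 168 results, 5168 stayed the same: called both times in 1 direction, or called neither time and changed by less than 1 SE, whatever the sign. A further 49 lost the call, 11 gained it, 150 moved by 1 SE or more without a call, and 1 reversed a called direction. Sign changes without a call were not counted as reversals. Most recomputations left out 1 library, often one outside the comparison, and most results were not called. The share that stayed the same was therefore bound to be high. Where a call was lost or a value moved the cause was not tested. The reversal was the DUSP6 region chr12:89351459-89354514 in KMS34 minus KMS11, -0.86 with windows around summits. Replicate numbers did not pair the libraries (8 of 55 gene-level pairs correlated over 0.1, range -0.22 to 0.26). With the replicate number as a block the genes called for NSD2LDD in KMS34 went to 1 from 3, the regions to 138 from 682, the regions in KMS11 to 25 from 48 and those of the interaction to 0 from 4. Member genes called: for TKO 1 of 3 with no scaling and 2 to 3 leaving out 1 library; for TKO minus NSD2LDD effects 1 of 2 with equal lists, no scaling or -log10 q of 5, and 2 to 3 leaving out 1; between lines 3 to 5; for NSD2LDD and the interaction 0 to 0. Member regions: between lines 4 of 8 with summit windows, 7 to 10 leaving out 1; for TKO 3 of 5 with equal lists or 1 line alone, 3 (without TKO replicate 2) to 6; for the difference of effects 2 of 4 with either, 3 to 6; for NSD2LDD in KMS34 1 with equal lists (the SPRED1 promoter region, -3.10, adjusted p = 0.00856), otherwise 0 to 0. Over all genes, TKO gave 607 with 1000 bp added, 185 with no scaling and 636 to 1521 leaving out 1; the difference of effects 252 with 1000 bp, 327 with equal lists, 60 with no scaling and 393 to 1029; the lines 6632 to 7585; the interaction 0 to 1. NSD2LDD in KMS11 gave 0 with 1000 bp or 50 bp added, 5 kb windows, equal lists, no scaling or 1 line alone, 1 with -log10 q of 5, and 0 to 5; in KMS34 0 with 1000 bp, 5 kb, 50 kb or 1 line, 6 with 50 bp, 39 with equal lists, 1 with -log10 q of 5, and 0 to 6. Over all regions, the lines gave 14718 with equal lists and 20762 to 24089; TKO 2240 to 3989; the difference of effects 1139 with 1 line and 1538 to 2845. The interaction gave 95 with 30 bp, 0 with 300 bp, 159 with equal lists, 1 with no filter, 71 with no scaling, 31 with -log10 q of 5, 1356 with summit windows, 120 without trend and robust, and 0 to 18. NSD2LDD in KMS11 gave 380, 8, 305, 24, 237, 106, 590 and 359 under these settings in that order, 0 with 1 line, and 31 to 85. In KMS34 it gave 1541 with 30 bp, 80 with 300 bp, 93 with no filter, 1390 with no scaling, 6 with 1 line, 1613 with summit windows, 1538 without trend and robust, and 114 to 912. The EPHA2 region seen in TKO alone has no value without either TKO library, since 2 libraries are needed. Without read counts, depth cannot be set against any missing peak.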
